A study of Arabidopsis thaliana with 24 samples.

Results

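Roots of Arabidopsis thaliana seedlings that had been kept for 24 h on 0.8 nM brassinolide (BL) together with 4 µM kynurenine (Kyn) were compared with roots kept for 24 h on mock medium, with 2 libraries on each side, 4 of the 24 libraries of the series. The 4 libraries were taken by their labels alone. All plants were Col-0, with no mutation or transgene named, and were grown for 3 days on half-strength Murashige and Skoog medium with 0.2% sucrose before the transfer. The other 20 libraries were mock, BL, Kyn and BL+Kyn roots at 12 and 48 h and BL and Kyn roots at 24 h, again 2 a group. The root was cut near its tip, the RNA is thus of whole root ends and not of a cell type, and each RNA was read at its 3' end by CEL-Seq2 after tagging with a pool of 3 barcoded primers. The series calls the 2 libraries of a group biological replicates, but no source says which plates or plants they came from. The p-values thus measure only the spread between libraries of a group, pooled over all 12 groups of the series.

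Brassinolide is the most active brassinosteroid, a steroid hormone that is perceived at the cell surface by BRI1 and relatives, inactivates the GSK3-type kinase BIN2 and so lets the factors BZR1 and BES1 change transcription. Kynurenine blocks TAA1 and related aminotransferases, which make indole-3-pyruvate, the precursor from which YUCCA enzymes make the auxin indole-3-acetic acid. Auxin releases ARF factors from their Aux/IAA repressors, maintains the root meristem, starts lateral roots and drives the elongation of root hairs, the tubular outgrowths of single epidermal cells. In roots both hormones set cell division, elongation and differentiation, and the comparison asked how transcripts respond when brassinosteroid is supplied while auxin synthesis is inhibited.

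After 24 h of both compounds most root hair genes fell, as did many ribosomal protein genes and several auxin response genes, while most Casparian strip and aquaporin genes and many peroxidases rose. Called genes, and those that rose or fell, are genes with an adjusted p (Benjamini-Hochberg over all genes tested) under 0.05 in the moderated test of limma. In BL+Kyn against mock, 3457 of 18948 genes were called, a background of 18.2%, with 1825 higher (9.63%) and 1632 lower (8.61%). Changes of at least 2-fold made up 735 of the rises and 476 of the falls, and the median log2 difference of all genes was -0.01. The number of calls was 1538 without mock replicate 1, 1463 without mock replicate 2, 2540 without BL+Kyn replicate 1 and 1059 without BL+Kyn replicate 2. Both BL+Kyn libraries lay above both mock libraries for 32.0% of all genes and below them for 31.7%, 63.7% in all.

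**Figure D1:**
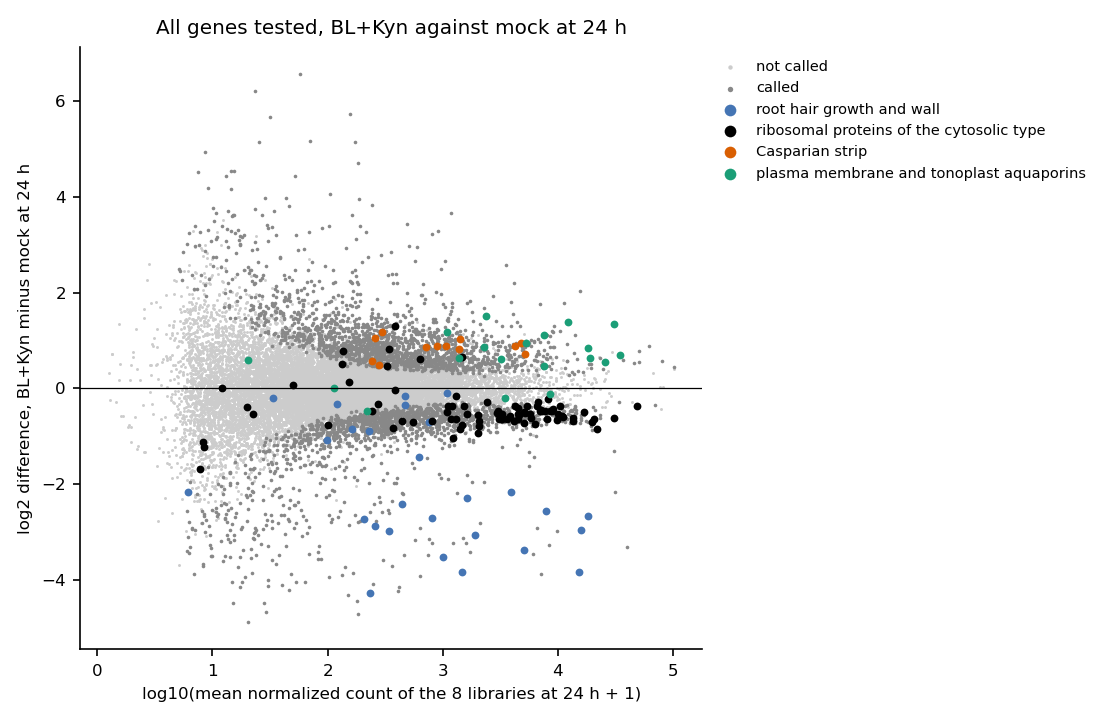
Each point is 1 of the 18948 genes tested, with its mean normalized count over the 8 libraries at 24 h (log10 of the value + 1, horizontal) and its fitted log2 difference between BL+Kyn and mock at 24 h (vertical). Dark grey points are the 3457 called genes; coloured points are members of 4 gene groups, of which root hair genes (blue) lie furthest below 0 and Casparian strip genes (orange) all lie above 0.

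The 4 libraries held 31365110 and 9656985 reads in mock and 21058895 and 8710379 in BL+Kyn, against 6322167 to 31365110 in the series, with the shallower library being replicate 2 on both sides. The median absolute log2 difference between the 2 replicates was 0.168 in mock and 0.197 in BL+Kyn. All 11 root identity markers, among them PLT1, SHR, SCR, CASP1 and COW1, were detected. CASP1 and MYB36 rose, PLT2, COW1 and EXPA7 fell and the other 6 were not called, and their summed normalized count was 7813 and 7807 in mock and 8961 and 9446 in BL+Kyn. The 14 tested markers of green shoot tissue summed to 3121 and 3173 in mock and 6292 and 3495 in BL+Kyn, and BL+Kyn replicate 1 stood highest. None of them was at 0 in all 4 libraries, and none was called in the fit of all 24 libraries. The spread in that fit includes replicate 2 of BL and of Kyn at 12 h, where these markers summed to 94239 and 102160. Without those 2 libraries 1 marker rose, and in a fit of the 4 libraries alone 2 rose. The 5 root cap markers summed to 684 and 864 in mock and 599 and 482 in BL+Kyn, and the root cap cellulase gene CEL5 alone among them was called, at 416 and 502 in mock and 207 and 157 in BL+Kyn, log2 -1.34, SE 0.25, adjusted p = 0.0014. Whether more shoot tissue or less root cap in a sample bears on any result below was not tested. In RNA from whole root ends, fewer cells of a type and less RNA per cell cannot be told apart.

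Root hair genes held many of the deepest falls, among them the wall genes XTH26, EXT6 and PRP1. The list of hair growth and hair wall genes had 28 members, of which 27 passed the minimum mean of 5. None was higher, 21 were lower, against 8.61% of all genes, and 6 were not called. In 24 of the 27, both BL+Kyn libraries lay below both mock libraries, against 31.7% of all genes. The median log2 difference was -2.41, and single members ranged from -4.27 to -0.11. The number of falls was 17, 16, 16 and 18 when mock replicate 1, mock replicate 2, BL+Kyn replicate 1 and BL+Kyn replicate 2 were left out in turn, an order used for all such counts below. The 5 markers of hair cells summed to 23458 and 28549 in mock and 2551 and 5091 in BL+Kyn, and all 5 fell.

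Hair genes are known for a promoter element, the root hair element, through which the bHLH factor RSL4 acts. Its core, TG followed after 3 or 4 bases of any kind by GCACG or TCACG, was searched on both strands of the 250 bases before the annotated start of each gene (RefSeq, TAIR10.1). The window of EXPA7 (chr1:4276255-4276504, plus strand), a root hair expansin, held 2 matches, and so did that of RHS13 (chr4:993040-993289, minus strand). The window of MRH6 (chr2:1131870-1132119, plus strand) held 1, and that of XTH26 (chr4:14244040-14244289, plus strand), the deepest fall in the list, held none. These 4 genes are examples with and without a match. They stand neither for the shallower falls of the list nor for its share with a match. Their windows are shown 5′ to 3′ toward the start, with matches on either strand in capitals:
EXPA7: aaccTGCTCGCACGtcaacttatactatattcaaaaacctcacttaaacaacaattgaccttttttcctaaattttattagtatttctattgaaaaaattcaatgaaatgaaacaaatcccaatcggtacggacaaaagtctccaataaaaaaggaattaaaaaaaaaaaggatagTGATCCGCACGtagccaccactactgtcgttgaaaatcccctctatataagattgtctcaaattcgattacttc
RHS13: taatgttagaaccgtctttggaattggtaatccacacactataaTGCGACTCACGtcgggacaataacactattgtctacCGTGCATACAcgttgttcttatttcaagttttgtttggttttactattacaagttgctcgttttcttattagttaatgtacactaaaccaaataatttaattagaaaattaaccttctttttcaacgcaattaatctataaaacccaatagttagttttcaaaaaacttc
MRH6: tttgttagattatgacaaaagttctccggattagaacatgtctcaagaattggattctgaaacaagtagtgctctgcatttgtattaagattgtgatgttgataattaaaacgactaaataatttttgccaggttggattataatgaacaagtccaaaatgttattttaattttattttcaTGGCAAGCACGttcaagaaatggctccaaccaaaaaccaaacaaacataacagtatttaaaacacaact
XTH26: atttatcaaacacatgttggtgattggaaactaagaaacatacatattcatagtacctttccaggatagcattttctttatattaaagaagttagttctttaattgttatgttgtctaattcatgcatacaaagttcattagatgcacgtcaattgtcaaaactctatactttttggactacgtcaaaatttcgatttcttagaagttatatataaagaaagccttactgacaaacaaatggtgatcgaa
Of the 27 windows of the list, 9 (33.3%) held a match, against 803 (4.3%) of the 18473 windows of all genes tested. The Casparian strip list, with 0 of 12, and the aquaporin list, with 0 of 19, held none. The element is known from hair genes and the list is made of known hair genes, so its 33.3% is not a separate result of the treatment. A match describes the letters and not binding.

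EXPA7 (chromosome 1, 4276519 to 4277899; gene positions are those of the deposited table, TAIR10) stood at 1900.5 and 2089.7 in mock and 262 and 633 in BL+Kyn. Both BL+Kyn libraries were far below both mock libraries and differed from each other more than the mock pair did, and the gene fell by 2.29 (log2, SE 0.31, adjusted p = 9.65e-05). RHS13 (chromosome 4, 992175 to 993038), named for its hair-specific transcript, stood at 2242 and 2729 in mock and 222 and 399.6 in BL+Kyn. It fell by 3.05 (log2, SE 0.29, adjusted p = 2.44e-06), again without overlap of the groups. MRH6 (chromosome 2, 1132170 to 1133379), annotated as an adenine nucleotide hydrolase-like protein and required for normal hair shape, stood at 426 and 514 in mock and 46.1 and 75.1 in BL+Kyn. MRH6 fell by 2.97 (log2, SE 0.25, adjusted p = 8.89e-07).

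XTH26 (chromosome 4, 14244295 to 14245957), a xyloglucan-remodelling enzyme of hair walls, stood at 276 and 511 in mock and 18.5 and 18.4 in BL+Kyn. The BL+Kyn pair was almost equal while the mock pair was spread, and XTH26 fell by 4.27 (log2, SE 0.44, adjusted p = 5.01e-06). The wall protein genes EXT6, PRP1 and AGP3, an extensin, a proline-rich protein and an arabinogalactan protein, were the abundant members. EXT6 stood at 18813 and 26904 in mock and 1118 and 2234 in BL+Kyn (log2 -3.83, SE 0.37, adjusted p = 2.72e-06), PRP1 at 1675 and 2817 in mock and 119 and 196 in BL+Kyn (log2 -3.83, SE 0.35, adjusted p = 2.02e-06) and AGP3 at 9803 and 11456 in mock and 1353 and 2413 in BL+Kyn (log2 -2.55, SE 0.27, adjusted p = 5.95e-06). Every one of them kept its groups apart, as did 63.7% of all genes, and BL+Kyn replicate 2 was the higher of its pair in all 3. COW1, a phosphatidylinositol transfer protein required for hair tip growth, stood at 527 and 729.5 in mock and 85.4 and 157 in BL+Kyn. COW1 fell by 2.41 (log2, SE 0.30, adjusted p = 3.06e-05). RHS19, named for its hair-specific transcript, stood at 6233 and 8131 in mock and 481 and 981 in BL+Kyn (log2 -3.37, SE 0.33, adjusted p = 3.33e-06).

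The hair growth regulators RSL4 and RSL2 had smaller fitted falls than the wall genes above, and genes of hair cell fate were not called. Those wall genes were mostly named for small p-values or deep falls, so the sizes do not compare regulators with wall genes as classes. RSL4, the bHLH factor that sets hair length, stood at 113 and 106 in mock and 42.7 and 60.9 in BL+Kyn, without overlap, and fell by 1.09 (log2, SE 0.33, adjusted p = 0.0276). Its call was lost on leaving out any of the 4 libraries, with an adjusted p of 0.128 without mock replicate 1, 0.104 without mock replicate 2, 0.179 without BL+Kyn replicate 1 and 0.0598 without BL+Kyn replicate 2. RSL2, its relative, stood at 251 and 228 in mock and 118 and 140.3 in BL+Kyn (log2 -0.89, SE 0.30, adjusted p = 0.0474) and likewise lost its call each time, with an adjusted p of 0.196 without mock replicate 1, 0.132 without mock replicate 2, 0.191 without BL+Kyn replicate 1 and 0.126 without BL+Kyn replicate 2. Of the 11 genes that pattern the epidermis into hair and non-hair files, none was called, against 18.2% of all genes. WER, a MYB factor of non-hair cells, stood at 141 and 127 in mock and 163 and 143 in BL+Kyn (log2 0.19, adjusted p = 0.564), and GL2, the homeodomain factor of the same cells, at 193 and 149.6 in mock and 201 and 157 in BL+Kyn (log2 0.06, adjusted p = 0.851).

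The 12 deepest falls among named genes also included wall and signalling genes. XTH12 and XTH13, adjacent and similar genes whose reads the counting may have split differently, stood at 809 and 1279 in mock and 48.3 and 90.7 in BL+Kyn and at 171 and 299 in mock and 9.55 and 11.3 in BL+Kyn. XTH12 fell by 3.92 (log2, SE 0.37, adjusted p = 2.05e-06) and XTH13 fell by 4.32 (log2, SE 0.48, adjusted p = 1.14e-05). RHS14, named for its hair-specific transcript, stood at 352 and 428 in mock and 16.9 and 28.3 in BL+Kyn (log2 -4.09, SE 0.32, adjusted p = 4.41e-07), AGC1.7, an AGC-type protein kinase, at 69.1 and 76.7 in mock and 2.81 and 5.67 in BL+Kyn (log2 -3.87, SE 0.47, adjusted p = 2.53e-05), and FLA6, a fasciclin-like arabinogalactan protein, at 219 and 274 in mock and 10.7 and 24.1 in BL+Kyn (log2 -3.85, SE 0.36, adjusted p = 2.05e-06). Groups that did not overlap were a condition for choosing these deepest falls.

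RIC1 (chromosome 2, 14174590 to 14175561), an effector of ROP GTPases that orders cortical microtubules, had the smallest adjusted p among the named falls and stood at 722 and 701 in mock and 47.8 and 32.6 in BL+Kyn. It fell by 4.14 (log2, SE 0.25, adjusted p = 1.58e-08). OFP11, an ovate family protein, had 2 reads in both BL+Kyn libraries together against 131 in mock, a ratio of 47.1-fold lower with a 95% exact counting interval of 12.8 to 393. CYP94D1, a cytochrome P450, had 3 reads against 125, 29.97-fold lower (10.02 to 147), and RHS6 had 3 against 106, 25.4-fold lower (8.46 to 125). These intervals cover counting error only. ESE2, an AP2-type factor, stood at 66.9 and 103 in mock and 3.93 and 4.25 in BL+Kyn (log2 -4.04, SE 0.69, adjusted p = 0.00082), and ATGSTF13, a phi-class glutathione transferase, at 64.99 and 89.03 in mock and 2.81 and 4.25 in BL+Kyn (log2 -4.11, SE 0.67, adjusted p = 0.000528).

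Extensins and class III peroxidases split between falls and rises. Of 19 genes annotated as extensins that passed the minimum mean, 10 fell and 4 rose, with 9, 9, 9 and 10 falls and 2, 3, 4 and 2 rises when 1 library was left out. The fallers EXT13 (12900.5 and 15507 in mock and 1367 and 2361 in BL+Kyn, log2 -2.98, SE 0.32, adjusted p = 7.31e-06) and AT4G08410 (10040.4 and 13233 in mock and 882 and 1614 in BL+Kyn, log2 -3.27, SE 0.34, adjusted p = 4.92e-06) lay far from the riser EXT4 (5299 and 6309.8 in mock and 17131 and 22829.6 in BL+Kyn, log2 1.77, SE 0.21, adjusted p = 1.81e-05). Of 53 class III peroxidases that passed the minimum mean, secreted enzymes that use hydrogen peroxide to crosslink or loosen walls, 25 rose and 7 fell. Leaving out 1 library gave 17, 19, 23 and 12 rises and 5, 6, 7 and 5 falls, and the low count of rises was without BL+Kyn replicate 2. AT5G39580 stood at 38.2 and 35.9 in mock and 461 and 468 in BL+Kyn (log2 3.61, SE 0.37, adjusted p = 4.11e-06), AT1G71695 at 142 and 149.6 in mock and 1129.7 and 1131 in BL+Kyn (log2 2.94, SE 0.25, adjusted p = 8.07e-07) and PRXCB at 848 and 874 in mock and 2579 and 3389.9 in BL+Kyn (log2 1.78, SE 0.19, adjusted p = 6.41e-06). Among the falls, AT1G34510 stood at 1011 and 1259 in mock and 78.1 and 129 in BL+Kyn (log2 -3.48, SE 0.33, adjusted p = 2.3e-06) and AT3G49960 at 2101 and 3037 in mock and 211 and 346 in BL+Kyn (log2 -3.22, SE 0.39, adjusted p = 2.72e-05). Members of this family were thus found among the rises and among the falls. For both families, the shares of all genes were 9.63% for rises and 8.61% for falls. These 5 peroxidases were chosen by their small p-values, and their groups did not overlap, as was so for 63.7% of all genes.

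**Figure D2:**
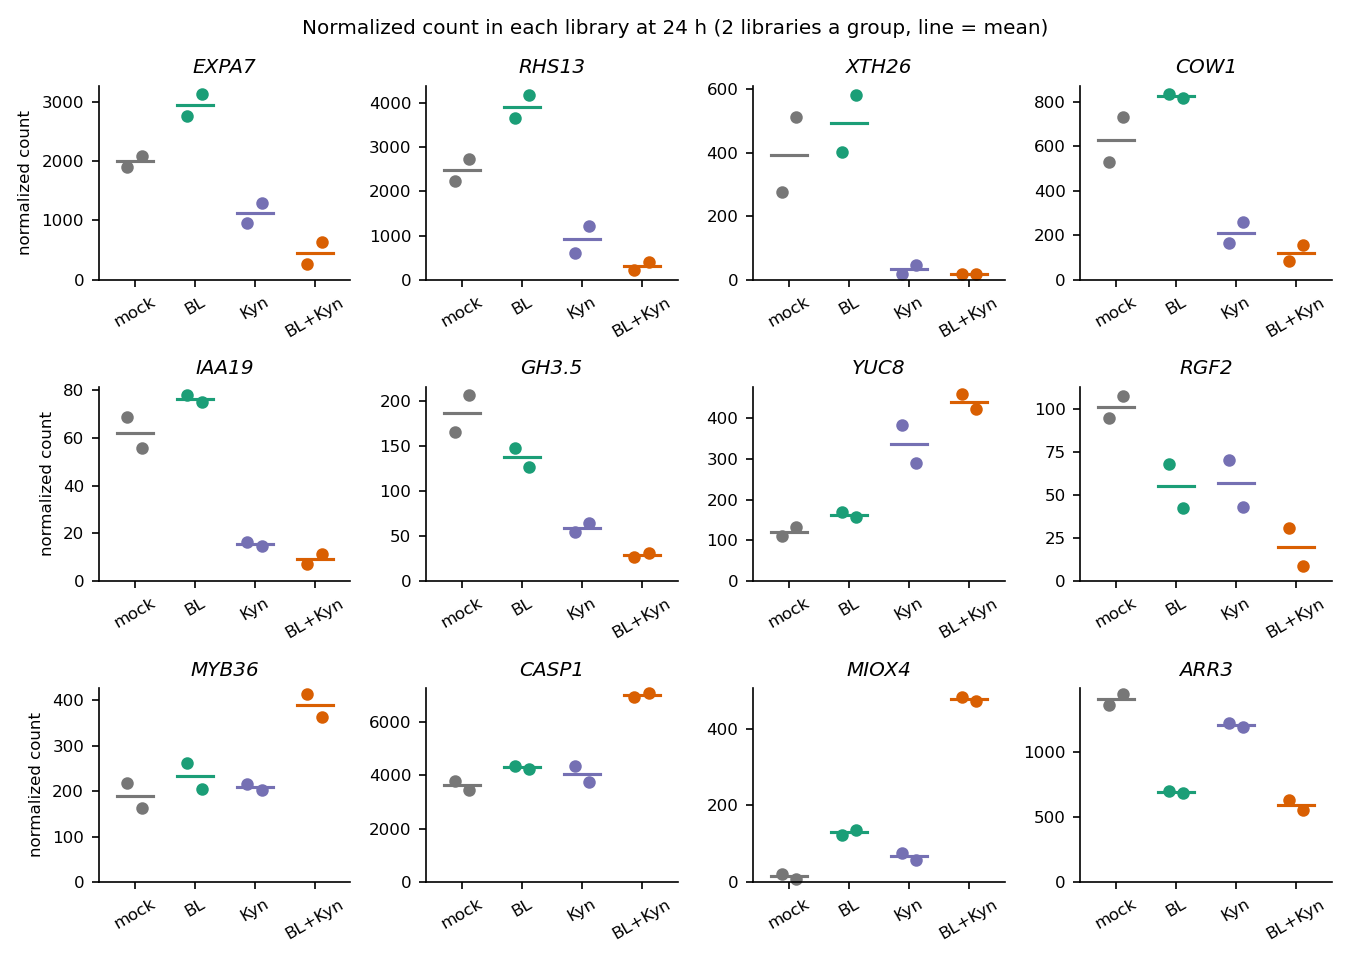
Normalized count (vertical, linear from 0) of 12 genes in each of the 8 libraries at 24 h, by treatment (horizontal); points are libraries and lines are means of 2. EXPA7, RHS13, XTH26 and COW1 are lowest in BL+Kyn and not lowered in BL, and CASP1, MYB36 and MIOX4 are highest in BL+Kyn.

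Several auxin response genes fell, and the auxin synthesis gene YUC8 rose. Aux/IAA genes encode the short-lived repressors that auxin removes, and auxin also induces most of these genes. Of the 24 tested, 7 fell and 3 rose, with a median of -0.44, where 8.61% of all genes fell and 9.63% rose. When libraries were left out in turn 4, 4, 5 and 6 fell and 2, 2, 2 and 2 rose, so that the number of falls moved most without either mock library. IAA31 (chromosome 3, 6020025 to 6021142) stood at 144 and 129.8 in mock and 8.99 and 12.8 in BL+Kyn. IAA31 fell by 3.55 (log2, SE 0.34, adjusted p = 2.18e-06). IAA19 (chromosome 3, 5264024 to 5265678) stood at 68.8 and 55.6 in mock and 7.30 and 11.3 in BL+Kyn. IAA19 fell by 2.63 (log2, SE 0.30, adjusted p = 1.55e-05). IAA1 stood at 88.8 and 76.7 in mock and 8.99 and 11.3 in BL+Kyn (log2 -2.91, SE 0.38, adjusted p = 6.55e-05) and IAA11 at 207 and 220.1 in mock and 96.6 and 106 in BL+Kyn (log2 -1.07, SE 0.19, adjusted p = 0.000986). IAA28, an Aux/IAA gene that auxin is known to lower, stood at 2770.2 and 2977 in mock and 4955 and 5871 in BL+Kyn. IAA28 rose by 0.91 (log2, SE 0.13, adjusted p = 0.000196). The BL+Kyn and mock libraries did not overlap in these 5 called genes, as was so for 63.7% of all genes.

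The window of IAA19 (chr3:5263751-5264000, plus strand) is shown because IAA19 is the lowered Aux/IAA gene with the most matches to the auxin response element, searched as TGTCTC and TGTCGG on both strands and in capitals below:
IAA19: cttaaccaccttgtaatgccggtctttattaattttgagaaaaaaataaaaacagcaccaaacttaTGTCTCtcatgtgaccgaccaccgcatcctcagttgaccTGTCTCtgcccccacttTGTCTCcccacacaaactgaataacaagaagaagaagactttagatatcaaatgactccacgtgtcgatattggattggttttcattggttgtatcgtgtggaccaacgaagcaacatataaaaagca
It held 3 matches, beginning 184, 145 and 128 bases before the start. Of the 24 Aux/IAA windows, 9 (37.5%) held such a match, against 2729 (14.8%) of all 18473. IAA31 and IAA11, which fell as well, had none in this window.

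GH3.5 (chromosome 4, 13653609 to 13656204), an enzyme that joins auxin to amino acids, stood at 166 and 206 in mock and 26.96 and 31.2 in BL+Kyn. The groups were far apart, and it fell by 2.63 (log2, SE 0.23, adjusted p = 1.07e-06). Of all genes 8.61% fell and 9.63% rose. Among 10 genes of auxin conjugation and oxidation, GH3.5 was 1 of 2 falls, with 0 rises. The other, GH3.1 (97.9 and 129.8 in mock and 43.8 and 29.8 in BL+Kyn, log2 -1.61, SE 0.48, adjusted p = 0.0253), was not called when some libraries were left out, with an adjusted p of 0.0699 without mock replicate 1, 0.163 without mock replicate 2 and 0.201 without BL+Kyn replicate 2. GH3.3, a close relative, had overlapping groups at 21.2 and 7.42 in mock and 5.06 and 18.4 in BL+Kyn (log2 -0.33, adjusted p = 0.79).

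YUC8 (chromosome 4, 14192583 to 14194256), a YUCCA flavin monooxygenase of the last step of auxin synthesis, stood at 110.3 and 132 in mock and 459.5 and 422 in BL+Kyn. YUC8 rose by 1.86 (log2, SE 0.17, adjusted p = 2.02e-06). TAA1, the aminotransferase that kynurenine inhibits, stood at 74.05 and 84.1 in mock and 33.1 and 39.7 in BL+Kyn. TAA1 fell (log2 -1.10, SE 0.26, adjusted p = 0.00807); its adjusted p was 0.0727 without mock replicate 2 and 0.0572 without BL+Kyn replicate 1. CYP79B2, which turns tryptophan into indole-3-acetaldoxime, stood at 476 and 574 in mock and 984 and 941 in BL+Kyn. CYP79B2 rose by 0.88 (log2, SE 0.17, adjusted p = 0.00189). For the lists counted in this paragraph, the shares of all genes were 9.63% for rises and 8.61% for falls. In all, 4 of 15 auxin synthesis genes rose and 1 fell, and leaving out libraries gave 2, 2, 2 and 3 rises and 1, 0, 0 and 1 falls. Of 14 tested transport genes 3 fell and 0 rose, with 1, 2, 1 and 1 falls when libraries were left out. The influx carrier LAX2 stood at 363 and 294 in mock and 133 and 113 in BL+Kyn. LAX2 fell by 1.41 (log2, SE 0.21, adjusted p = 0.000204), and the efflux carrier PIN2 (9812 and 9580.3 in mock and 9216 and 7878 in BL+Kyn, adjusted p = 0.31) was not called. Among 9 tested genes of lateral root formation, the initiation factor GATA23 (20.02 and 19.8 in mock and 1.69 and 2.83 in BL+Kyn) and the AP2-type factor PUCHI (19.6 and 16.1 in mock and 3.37 and 1.42 in BL+Kyn) fell and MYB124 (107 and 111 in mock and 185 and 169 in BL+Kyn) rose, and every one of these calls was lost in at least 3 of the 4 fits without a library. The adjusted p for GATA23 was 0.0686 without mock replicate 1, 0.0692 without mock replicate 2, 0.0684 without BL+Kyn replicate 1 and 0.0546 without BL+Kyn replicate 2. That for PUCHI was 0.09 without mock replicate 1, 0.0635 without mock replicate 2 and 0.14 without BL+Kyn replicate 2, and that for MYB124 was 0.151 without mock replicate 1, 0.121 without mock replicate 2, 0.143 without BL+Kyn replicate 1 and 0.119 without BL+Kyn replicate 2.

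A few genes of brassinosteroid synthesis and inactivation were called, and BIN2 rose. Of 12 such genes, 3 rose and 1 fell, with a median of -0.06. Of all genes 9.63% rose and 8.61% fell, so the 1 fall is near the share of all genes. CYP90D1, a C-23 hydroxylase of the pathway, stood at 23.8 and 13.6 in mock and 64.6 and 76.5 in BL+Kyn. CYP90D1 rose by 1.91 (log2, SE 0.37, adjusted p = 0.00223). BR6OX2, the oxidase of the last step, which brassinosteroid is known to repress, stood at 118 and 121 in mock and 76.96 and 60.9 in BL+Kyn. BR6OX2 fell by 0.79 (log2, SE 0.23, adjusted p = 0.022), with an adjusted p of 0.0905 without mock replicate 1, 0.114 without mock replicate 2 and 0.205 without BL+Kyn replicate 2. DWF4 (77.1 and 86.5 in mock and 56.7 and 75.1 in BL+Kyn, log2 -0.32, adjusted p = 0.493) and CPD (614 and 540.4 in mock and 481 and 360.0 in BL+Kyn, log2 -0.47, adjusted p = 0.0993), further feedback-regulated enzymes, lay lower in both BL+Kyn libraries than in both mock libraries without being called. The same order of libraries was found for 31.7% of all genes. Leaving out libraries gave 1, 1, 2 and 1 rises and 0, 0, 2 and 0 falls in this list. Of 12 tested signalling genes, 1 was called against a background of 18.2% of all genes. It was the kinase gene BIN2, at 3372 and 2889.7 in mock and 4964 and 5118 in BL+Kyn; it rose by 0.69 (log2, SE 0.15, adjusted p = 0.00519), and its adjusted p was 0.0707 without mock replicate 2 and 0.0534 without BL+Kyn replicate 2. The receptor gene BRI1 stood at 539 and 458 in mock and 463 and 364 in BL+Kyn (adjusted p = 0.319).

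Wall-loosening genes outside the root hair list went both ways. For each list in this paragraph, the shares of all genes were 9.63% for rises and 8.61% for falls. Of 26 tested XTH genes, 5 rose and 6 fell; the deepest falls were those of XTH12 and XTH13, described above, and of XTH14, all 3 known from root hair cells. There were 3 other falls, and all falls numbered 4, 3, 5 and 4 with libraries left out. XTH14 stood at 1911 and 2555 in mock and 192 and 337 in BL+Kyn (log2 -3.11, SE 0.33, adjusted p = 6.91e-06). XTH23 (chromosome 4, 13128643 to 13129884), whose transcript is known to respond to brassinosteroid, stood at 203 and 204 in mock and 1238 and 1332 in BL+Kyn. XTH23 rose by 2.65 (log2, SE 0.28, adjusted p = 5.95e-06). XTH22, the touch- and brassinosteroid-induced gene TCH4, stood at 9.07 and 7.42 in mock and 47.2 and 66.6 in BL+Kyn (log2 2.63, SE 0.53, adjusted p = 0.00276), and XTH24 at 216 and 266 in mock and 615 and 636 in BL+Kyn (log2 1.38, SE 0.23, adjusted p = 0.000627). Among 17 tested expansins outside the root hair list, 4 rose and 3 fell, the latter moving to 1, 1, 3 and 1 with libraries left out. EXPA8 (111 and 66.8 in mock and 388 and 262 in BL+Kyn, log2 1.88, SE 0.33, adjusted p = 0.000986) and EXPA17 (89.9 and 95.2 in mock and 365 and 363 in BL+Kyn, log2 1.96, SE 0.37, adjusted p = 0.00154) stood against EXPA15 (789 and 690.0 in mock and 279 and 221 in BL+Kyn, log2 -1.57, SE 0.18, adjusted p = 1.5e-05). Of 10 genes of primary wall cellulose synthesis 5 rose and none fell (2, 2, 5 and 1 rises with libraries left out), with CESA2, a cellulose synthase, at 2959 and 2402 in mock and 4562 and 4718 in BL+Kyn (log2 0.80, SE 0.12, adjusted p = 0.000379).

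Most Casparian strip genes and a part of the suberin genes rose, and none of either fell. The Casparian strip is a lignin band in the endodermal wall that seals the apoplast, and suberin is a lipid layer laid down later on the same cells. All 12 Casparian strip genes had both BL+Kyn libraries above both mock libraries, against 32.0% of all genes. Of the 12, 10 rose, against 9.63% of all genes, with a median log2 difference of 0.88. The number of rises was 7, 3, 7 and 5 with libraries left out, so it fell most without mock replicate 2 and without BL+Kyn replicate 2.

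MYB36 (chromosome 5, 23334817 to 23336566), the factor that switches on the strip's genes, stood at 217 and 162 in mock and 415 and 363 in BL+Kyn. MYB36 rose by 1.04 (log2, SE 0.19, adjusted p = 0.00154). CASP1 (chromosome 2, 15159591 to 15160750), a membrane protein that marks the place of the strip, stood at 3796 and 3469.6 in mock and 6949 and 7103 in BL+Kyn. The pairs lay clearly apart with little spread within each. CASP1 rose by 0.95 (log2, SE 0.19, adjusted p = 0.00212). UCC1, a copper-binding uclacyanin of the strip, stood at 1214 and 1091 in mock and 2098 and 1974 in BL+Kyn (log2 0.82, SE 0.18, adjusted p = 0.00404). ESB1, a dirigent-type protein of lignin deposition, stood at 3572 and 3092 in mock and 6599.9 and 5789 in BL+Kyn (log2 0.90, SE 0.19, adjusted p = 0.00417; adjusted p = 0.0519 without mock replicate 2).

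Of 17 suberin genes 8 rose and none fell, with a median of 1.01, but 2, 4, 3 and 1 rose with libraries left out. KCS2, an enzyme of fatty acid elongation, stood at 69.9 and 65.5 in mock and 198 and 215 in BL+Kyn. KCS2 rose by 1.60 (log2, SE 0.28, adjusted p = 0.00111), a call that held without any 1 library. GPAT5, an acyltransferase of suberin monomers, stood at 35.5 and 37.1 in mock and 131 and 128 in BL+Kyn (log2 1.80, SE 0.49, adjusted p = 0.0155), with an adjusted p of 0.0829 without mock replicate 1, 0.077 without mock replicate 2, 0.0643 without BL+Kyn replicate 1 and 0.0955 without BL+Kyn replicate 2. GPAT7 had 1 read in mock and 35 in BL+Kyn, 48.7-fold higher with an interval of 8.18 to 1976. The summed normalized count of 7 endodermal markers was 14164 and 12702 in mock and 25159 and 24080.0 in BL+Kyn. Of vascular genes, 2 of 19 xylem genes and 2 of 14 phloem genes rose and none fell, against 9.63% of all genes that rose. These became 0, 1, 0 and 0 and 0, 0, 0 and 0 with libraries left out.

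Most aquaporin genes and some genes of nutrient uptake rose, where 9.63% of all genes rose and 8.61% fell. Of 19 aquaporins of the plasma membrane and tonoplast 13 rose and none fell, with a median of 0.64; with libraries left out 4, 3, 5 and 3 rose. TIP2;2, a tonoplast aquaporin, stood at 8042 and 7538 in mock and 19672 and 21339 in BL+Kyn. TIP2;2 rose by 1.40 (log2, SE 0.23, adjusted p = 0.000664). PIP1C stood at 5892 and 4540.4 in mock and 11536 and 10908 in BL+Kyn (log2 1.12, SE 0.21, adjusted p = 0.00154) and PIP1;4 at 2679.6 and 2649 in mock and 3904 and 4250.2 in BL+Kyn (log2 0.61, SE 0.13, adjusted p = 0.00326). Aquaporin genes are similar in sequence, and reads of near-identical members may have been assigned to each other.

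Among 16 tested genes of phosphate starvation 7 rose and 1 fell (2, 6, 6 and 2 rises with libraries left out). SQD2, a sulfolipid synthase, stood at 422 and 466 in mock and 1011 and 935 in BL+Kyn (log2 1.13, SE 0.16, adjusted p = 0.000149), whereas the glycerol-3-phosphate permease gene G3Pp2 stood at 973 and 1664 in mock and 79.2 and 229.6 in BL+Kyn. G3Pp2 fell by 3.23 (log2, SE 0.39, adjusted p = 2.72e-05). For the phosphate, nitrogen and iron lists, the shares of all genes were 9.63% for rises and 8.61% for falls. Of 15 tested nitrate and ammonium genes 5 rose and 1 fell (3, 4, 6 and 2 rises with libraries left out), with the ammonium transporter gene AMT1;1 at 1917 and 1794 in mock and 3543 and 4457 in BL+Kyn (log2 1.099, SE 0.18, adjusted p = 0.000494). ASN1, an asparagine synthetase that stores nitrogen, stood at 51.8 and 17.3 in mock and 453 and 510.2 in BL+Kyn. ASN1 rose by 3.95 (log2, SE 0.56, adjusted p = 0.000164). FIT, the bHLH regulator of iron uptake, stood at 2032 and 2517 in mock and 5271 and 8268 in BL+Kyn. FIT rose by 1.55 (log2, SE 0.26, adjusted p = 0.00062), while 3 of 17 iron genes rose in all (2, 1, 3 and 1 with libraries left out).

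Many genes of ribosome production fell, where 8.61% of all genes fell and 9.63% rose. Of 20 ribosome biogenesis genes 14 fell and none rose, with a median of -0.67, but 2, 5, 10 and 1 fell with libraries left out. BRX1-1, a factor of large-subunit assembly, stood at 149 and 161 in mock and 65.7 and 65.2 in BL+Kyn. BRX1-1 fell by 1.23 (log2, SE 0.28, adjusted p = 0.0053). The nucleolar genes FIB2 (7845 and 8523 in mock and 4369 and 3907 in BL+Kyn, log2 -0.98, SE 0.23, adjusted p = 0.00768; 0.0636 without mock replicate 2 and 0.0825 without BL+Kyn replicate 2) and NUC-L1 (5338 and 4951 in mock and 3017 and 2881 in BL+Kyn, log2 -0.80, SE 0.20, adjusted p = 0.00893; 0.0693 without mock replicate 1 and 0.0777 without BL+Kyn replicate 2), for fibrillarin and nucleolin, fell by similar amounts, the last values being the adjusted p without the named libraries. Of 84 tested genes annotated as ribosomal proteins of the cytosolic type, 55 fell and 4 rose, with a median of -0.54. The falls were 20, 30, 46 and 16 with libraries left out, lowest without BL+Kyn replicate 2. AT4G18100, for protein L32e, stood at 8179 and 7241 in mock and 4613 and 4583 in BL+Kyn (log2 -0.74, SE 0.12, adjusted p = 0.000481) and AT3G16780, for L19e, at 2569.6 and 2493 in mock and 1399 and 1268 in BL+Kyn (log2 -0.93, SE 0.16, adjusted p = 0.00076). The rises AT1G53560 (279 and 261 in mock and 614 and 723 in BL+Kyn, log2 1.30, SE 0.17, adjusted p = 8.3e-05) and AT3G14595 (286 and 246 in mock and 469 and 469 in BL+Kyn, log2 0.82, SE 0.14, adjusted p = 0.00102) are annotated as members of the L18ae family.

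Meristem genes such as RGF2 and PLT2 fell, and cell cycle genes had single falls. Of 15 genes of meristem maintenance 5 fell and 1 rose, with a median of -0.70 (3, 1, 3 and 2 falls with libraries left out). RGF2 (chromosome 1, 4668443 to 4669471), a peptide hormone that maintains PLETHORA proteins, stood at 94.5 and 108 in mock and 30.9 and 8.50 in BL+Kyn, the BL+Kyn pair being widely spread, and fell by 2.55 (log2, SE 0.47, adjusted p = 0.00148). PLT2, an AP2-type master factor of the stem cell niche, stood at 106 and 141 in mock and 66.8 and 59.5 in BL+Kyn (log2 -0.94, SE 0.26, adjusted p = 0.0184; adjusted p = 0.178 without mock replicate 2 and 0.137 without BL+Kyn replicate 2), and PLT1 at 95.97 and 114 in mock and 73.6 and 51.02 in BL+Kyn was not called (log2 -0.76, adjusted p = 0.0969). UPB1, a bHLH factor that acts where cells leave division for elongation, stood at 564 and 543 in mock and 916 and 1002 in BL+Kyn. UPB1 rose by 0.79 (log2, SE 0.17, adjusted p = 0.00451), with an adjusted p of 0.0585 without BL+Kyn replicate 2. Of 18 genes of the G1/S transition and DNA replication 3 fell, among them TSO2, a ribonucleotide reductase subunit, at 995 and 920.0 in mock and 673 and 659 in BL+Kyn (log2 -0.52, SE 0.11, adjusted p = 0.0036), and of 20 genes of G2/M 2 fell. With libraries left out these were 1, 2, 2 and 1 and 0, 0, 0 and 0. The share of all genes that fell was 8.61%, and the share that rose was 9.63%. None of the 38 cell cycle genes rose, and CYCB1;1, a mitotic cyclin, stood at 78.2 and 80.4 in mock and 51.7 and 46.8 in BL+Kyn without a call (adjusted p = 0.15). Of 14 genes of the endocycle and inhibitors of cyclin-dependent kinases, 1 rose and 2 fell, with 1, 0, 1 and 0 rises and 1, 1, 2 and 1 falls when libraries were left out. KRP6, an inhibitor of these kinases, stood at 85.4 and 60.6 in mock and 117 and 169 in BL+Kyn. KRP6 rose by 0.95 (log2, SE 0.24, adjusted p = 0.0104), with an adjusted p of 0.138 without mock replicate 2 and 0.165 without BL+Kyn replicate 2. KRP3 stood at 59.7 and 55.6 in mock and 37.6 and 18.4 in BL+Kyn (log2 -1.10, SE 0.35, adjusted p = 0.0363), with an adjusted p of 0.154 without mock replicate 1, 0.122 without mock replicate 2 and 0.415 without BL+Kyn replicate 2. SMR1, a further inhibitor, stood at 744 and 758 in mock and 342 and 397 in BL+Kyn. SMR1 fell by 1.03 (log2, SE 0.19, adjusted p = 0.00159).

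**Figure D3:**
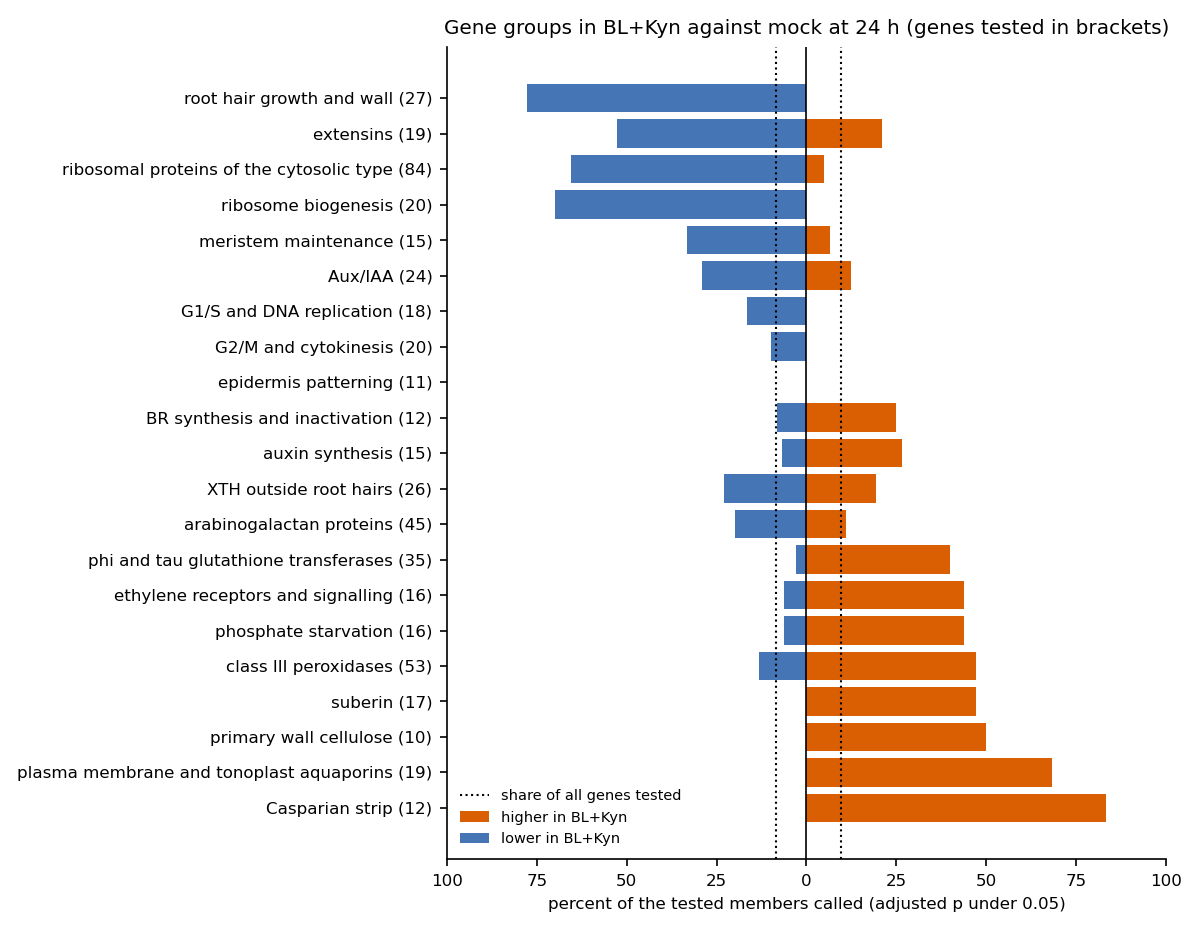
For each gene group (vertical; number of genes tested in brackets) the bars give the percent of its tested members that were called higher (orange, right) or lower (blue, left) in BL+Kyn against mock at 24 h, and the dotted lines give the shares of all 18948 genes, 9.63% and 8.61%. Root hair, ribosome and extensin genes lie to the left and Casparian strip, aquaporin and suberin genes to the right.

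Other hormone pathways had members that rose and members that fell, where 9.63% of all genes rose and 8.61% fell. Of 8 tested type-A response regulators, which cytokinin induces and which damp its signalling, 2 fell and none rose. ARR3 stood at 1365 and 1453 in mock and 631 and 558 in BL+Kyn. ARR3 fell by 1.25 (log2, SE 0.19, adjusted p = 0.000344), while ARR5 had overlapping groups at 562 and 455 in mock and 489 and 536 in BL+Kyn (adjusted p = 0.957). Of 13 genes of cytokinin metabolism 2 rose and 2 fell, with 0, 1, 1 and 1 rises and 1, 1, 1 and 1 falls when libraries were left out. IPT5, an enzyme of cytokinin synthesis, stood at 56.7 and 71.7 in mock and 126 and 187 in BL+Kyn (log2 1.25, SE 0.33, adjusted p = 0.0128), with an adjusted p of 0.106 without mock replicate 1 and 0.165 without BL+Kyn replicate 2. CYP735A1, which makes trans-zeatin forms, stood at 39.3 and 35.9 in mock and 115 and 77.95 in BL+Kyn (log2 1.31, SE 0.35, adjusted p = 0.0141), with an adjusted p of 0.0617 without mock replicate 1, 0.0897 without mock replicate 2 and 0.115 without BL+Kyn replicate 1. CKX5, a cytokinin oxidase, stood at 44.6 and 43.3 in mock and 14.6 and 15.6 in BL+Kyn (log2 -1.48, SE 0.43, adjusted p = 0.0218), with an adjusted p of 0.103 without mock replicate 1, 0.0981 without mock replicate 2, 0.0842 without BL+Kyn replicate 1 and 0.107 without BL+Kyn replicate 2. CKX3, another cytokinin oxidase, stood at 41.6 and 45.8 in mock and 2.81 and 2.83 in BL+Kyn. CKX3 fell by 3.55 (log2, SE 0.49, adjusted p = 0.000111). Of 16 ethylene genes 7 rose and 1 fell (4, 2, 3 and 2 rises with libraries left out). ACO3, an ACC oxidase of the last step of ethylene synthesis, stood at 244 and 219 in mock and 1041 and 1057 in BL+Kyn (log2 2.18, SE 0.32, adjusted p = 0.000231). GID1B, a gibberellin receptor, stood at 177 and 167 in mock and 419.6 and 551 in BL+Kyn (log2 1.48, SE 0.20, adjusted p = 0.000122), and RD29A, an abscisic acid and cold response gene, at 405 and 485 in mock and 1376 and 2177 in BL+Kyn (log2 1.96, SE 0.29, adjusted p = 0.000257). In ARR3, CKX3, ACO3, GID1B and RD29A the groups did not overlap, as was so for 63.7% of all genes.

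Rises and falls numbered 4 and 1 of 16 gibberellin genes, 4 and 1 of 13 abscisic acid genes, 2 and 0 of 13 jasmonate genes and 4 and 0 of 13 salicylate and immunity genes. Of all genes 9.63% rose and 8.61% fell. With libraries left out the rises were 2, 2, 2 and 1 for gibberellin, 1, 3, 2 and 1 for abscisic acid, 0, 1, 2 and 0 for jasmonate and 1, 2, 3 and 0 for salicylate. FMO1, an enzyme of systemic immunity, stood at 7.18 and 1.24 in mock and 30.9 and 55.3 in BL+Kyn. FMO1 rose by 3.31 (log2, SE 0.89, adjusted p = 0.0146), with an adjusted p of 0.177 without mock replicate 2 and 0.137 without BL+Kyn replicate 2. None of 10 flavonoid genes was called.

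Among named genes the largest rises were those of a pair of cytochrome P450 genes and of MIOX4. CYP706A2 (chromosome 4, 11934969 to 11936755) and its neighbour CYP706A1, similar cytochrome P450 genes whose reads may be shared, stood at 7.93 and 7.42 in mock and 345 and 609 in BL+Kyn and at 3.40 and 7.42 in mock and 179 and 262 in BL+Kyn. Every BL+Kyn library lay far above both mock libraries, and groups that did not overlap were a condition for choosing the largest rises. The fitted rises were 5.73 (SE 0.72, adjusted p = 3.94e-05) and 5.16 (SE 0.74, adjusted p = 0.000171). MIOX4 (chromosome 4, 13297698 to 13300387) and MIOX2 (chromosome 2, 8530896 to 8533508) encode myo-inositol oxygenases, which make glucuronic acid for wall polysaccharides. MIOX4 stood at 20.8 and 7.42 in mock and 483 and 473 in BL+Kyn. MIOX4 rose by 5.14 (log2, SE 0.53, adjusted p = 5.22e-06). MIOX2 stood at 6492 and 6469 in mock and 25449.6 and 27564 in BL+Kyn. MIOX2 rose by 2.03 (log2, SE 0.19, adjusted p = 2.05e-06). MIOX4 and MIOX2 were the 2 calls among 14 genes of inositol and UDP-sugar metabolism, where 18.2% of all genes were called. CYP78A5, a P450 of organ growth, stood at 10.2 and 11.1 in mock and 316 and 289 in BL+Kyn (log2 4.70, SE 0.37, adjusted p = 4.41e-07), and HCHIB, a basic chitinase, at 97.5 and 110.0 in mock and 1168 and 1098 in BL+Kyn (log2 3.44, SE 0.33, adjusted p = 2.44e-06).

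Many glutathione transferases rose. The shares of all genes, for this and the next 2 families, were 9.63% for rises and 8.61% for falls. Of 35 tested glutathione transferases of the phi and tau classes 14 rose and 1 fell (11, 11, 14 and 9 rises with libraries left out). GSTF6 stood at 43.1 and 48.2 in mock and 463 and 942 in BL+Kyn (log2 3.83, SE 0.65, adjusted p = 0.000764), and GSTU19, the most abundant named member, at 49316 and 43867 in mock and 87157 and 84952 in BL+Kyn (log2 0.89, SE 0.16, adjusted p = 0.00115). Of 97 tested UDP-glycosyltransferases 14 rose and 1 fell, with UGT73B2 at 977 and 972 in mock and 1667 and 1713 in BL+Kyn (log2 0.79, SE 0.15, adjusted p = 0.00149); the rises were 7, 4, 10 and 4 with libraries left out. Of 45 tested arabinogalactan protein genes 5 rose and 9 fell (3, 1, 5 and 1 and 6, 3, 6 and 3 with libraries left out), and AGP30, 1 of the fallers, stood at 1789 and 2637 in mock and 583 and 589.5 in BL+Kyn (log2 -1.89, SE 0.22, adjusted p = 1.51e-05).

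Each compound alone gave far fewer calls at 24 h. The same mock libraries serve all 3 treatments, so their values are set side by side and no likeness between them is drawn. BL alone called 20 of 18948 genes (0.106%), 9 higher (0.0475%) and 11 lower (0.0581%). The calls were 7 without mock replicate 1, 0 without mock replicate 2, 4 without BL replicate 1 and 1 without BL replicate 2. Kyn alone called 165 (0.871%), 42 higher (0.222%) and 123 lower (0.649%). They became 66 without mock replicate 1, 19 without mock replicate 2, 32 without Kyn replicate 1 and 112 without Kyn replicate 2. MIOX4 rose in BL alone, at 123 and 136 against 20.8 and 7.42 in mock (log2 3.27, adjusted p = 0.0146), and its adjusted p was 0.28 without mock replicate 2, 0.129 without BL replicate 1 and 0.145 without BL replicate 2. MIOX2 rose as well, at 17465 and 15277 against 6492 and 6469 in mock (log2 1.33, adjusted p = 0.00509), with 0.0629 without mock replicate 1, 0.0603 without mock replicate 2, 0.116 without BL replicate 1 and 0.0512 without BL replicate 2. ARR3 fell in BL alone, at 706 and 689.6 (log2 -1.01, adjusted p = 0.0479), with 0.2 without mock replicate 1, 0.362 without mock replicate 2, 0.214 without BL replicate 1 and 0.388 without BL replicate 2. AGP30 fell too, at 647 and 715 (log2 -1.67, adjusted p = 0.00265), with 0.0584 without mock replicate 2, 0.064 without BL replicate 1 and 0.0512 without BL replicate 2. CYP707A3, an abscisic acid hydroxylase, fell in BL at 49.8 and 52.5 against 189 and 156 in mock and 161 and 93.5 in BL+Kyn (log2 -1.73 in BL, adjusted p = 0.0344), with 0.291 without mock replicate 1, 0.148 without mock replicate 2, 0.214 without BL replicate 1 and 0.232 without BL replicate 2. The BL and mock libraries did not overlap in these 5 genes, but the genes are described here because they were called in BL. The order of the libraries thus adds no support to those calls.

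For root hair genes the medians of the single compounds stood on opposite sides of 0. The median log2 difference of the 27 genes was 0.47 in BL, with no call, and -1.33 in Kyn, with 13 falls. The falls in Kyn were 9 without mock replicate 1, 1 without mock replicate 2, 1 without Kyn replicate 1 and 13 without Kyn replicate 2. EXPA7 stood at 2752 and 3118 in BL (log2 0.56, adjusted p = 0.716) and at 962 and 1286 in Kyn (log2 -0.84, adjusted p = 0.362). XTH26 stood at 403 and 581 in BL and at 19.98 and 48.1 in Kyn, where its log2 difference from mock was -3.55 (adjusted p = 0.000303). COW1 stood at 833 and 814 in BL and at 166 and 259 in Kyn. In all 3 genes the BL libraries lay above the mock mean, the Kyn libraries below both mock libraries and the BL+Kyn libraries below both Kyn libraries.

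For the Casparian strip, all 12 genes had small differences in both single treatments, with medians of 0.20 in BL and 0.15 in Kyn and no call. CASP1 stood at 4355 and 4247 in BL and 4369 and 3768 in Kyn, and MYB36 at 262 and 205 in BL and 216 and 203 in Kyn. YUC8 stood at 170.4 and 156 in BL and 382 and 290.1 in Kyn, and its log2 difference in Kyn was 1.46 (adjusted p = 0.000154). CYP78A5 stood at 11.9 and 12.5 in BL and 427 and 373 in Kyn (log2 5.10, adjusted p = 5.56e-07), and both Kyn libraries lay above both BL+Kyn libraries. Ribosomal protein genes had a median of -0.18 in BL and -0.12 in Kyn, with no call in either.

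**Figure D4:**
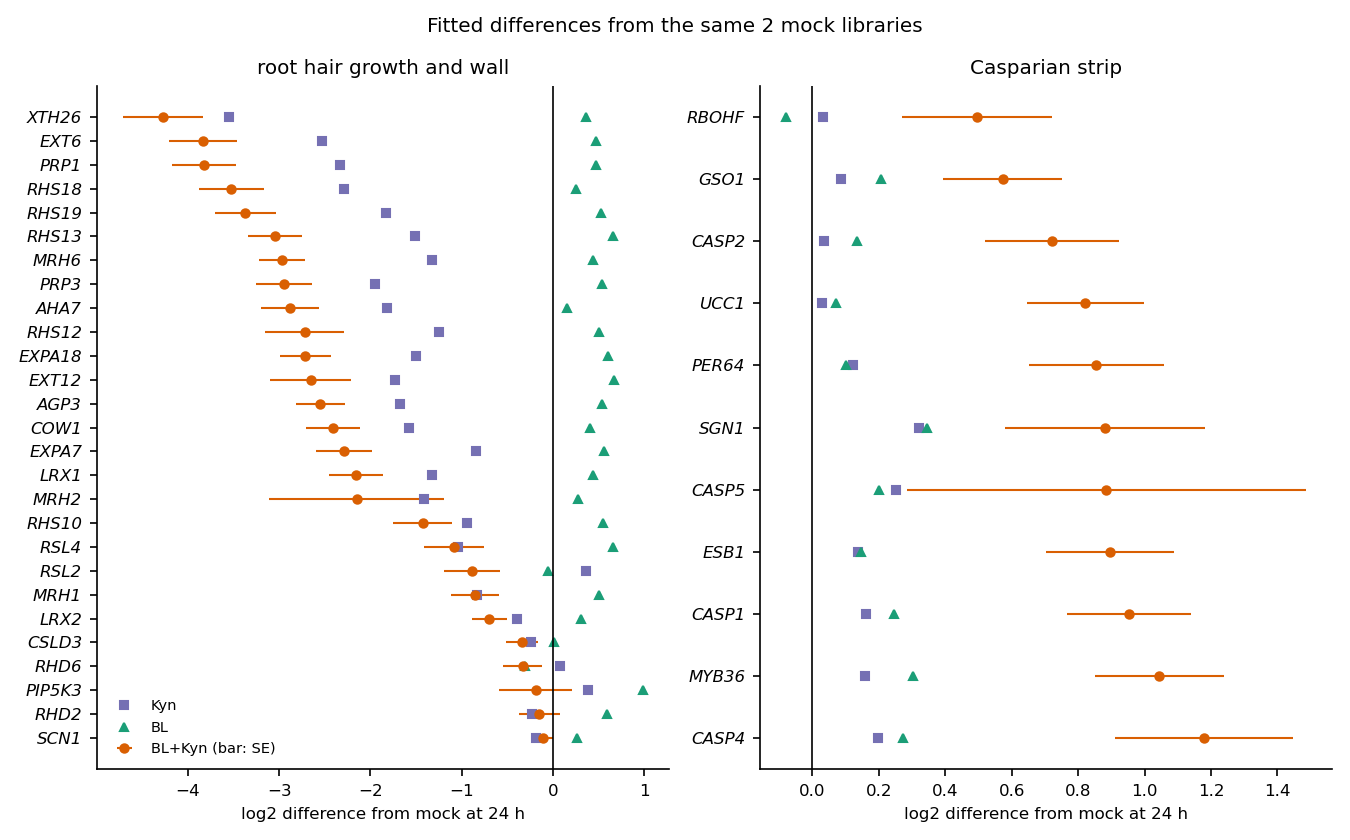
Fitted log2 difference from mock at 24 h (horizontal) of each tested root hair gene (left) and of 11 of the 12 Casparian strip genes (right) in BL+Kyn (circles, bars are standard errors), Kyn (squares) and BL (triangles). In the left panel BL lies near or above 0 and BL+Kyn below Kyn for most genes; in the right panel the BL+Kyn values of 0.50 to 1.18 lie to the right of both single compounds.

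What BL added to Kyn was tested directly between BL+Kyn and Kyn roots, which share no library. In this comparison 1017 genes were called (5.37%), 509 higher (2.69%) and 508 lower (2.68%). The calls were 120 without Kyn replicate 1, 110 without Kyn replicate 2, 579 without BL+Kyn replicate 1 and 60 without BL+Kyn replicate 2. Of the root hair genes 9 were lower in BL+Kyn than in Kyn and none higher (5, 1, 1 and 6 with Kyn replicate 1, Kyn replicate 2, BL+Kyn replicate 1 and BL+Kyn replicate 2 left out), of Casparian strip genes 7 were higher and none lower (0, 0, 0 and 0), and of ribosomal protein genes 18 were lower and 3 higher (0, 0, 9 and 0 lower). MRH6, at 154 and 225 in Kyn and 46.1 and 75.1 in BL+Kyn, differed by -1.64 (SE 0.25, adjusted p = 0.00241). RIC1, at 134 and 154 in Kyn and 47.8 and 32.6 in BL+Kyn, differed by -1.84 (SE 0.25, adjusted p = 0.00168). LACS1, a long-chain acyl-CoA synthetase, stood at 17.1 and 21.4 in Kyn and 140.4 and 153 in BL+Kyn (log2 2.87, SE 0.41, adjusted p = 0.00178), and MIOX2 at 12644 and 12756 and 25449.6 and 27564 (log2 1.06, SE 0.19, adjusted p = 0.00695). The adjusted p of MIOX2 was 0.0556 without Kyn replicate 1, 0.0523 without Kyn replicate 2 and 0.0943 without BL+Kyn replicate 2. XTH26 did not differ past the threshold between these groups (log2 -0.72, adjusted p = 0.342).

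The joint response was also compared with the sum of the single responses on the log2 scale, over all 8 libraries at 24 h. No gene departed from the sum in limma (0 of 18948, 0.0%), where 1132 had an unadjusted p under 0.05. The quasi-likelihood test of edgeR called 0 as well and DESeq2 called 39, and limma called 12 without Kyn replicate 1 and 7 without BL+Kyn replicate 2. The fitted departure of the root hair genes had a median of -1.27 and that of the Casparian strip genes a median of 0.57, as descriptions; EXPA7 had a departure of -2.00 (SE 0.44) and CASP1 of 0.55 (SE 0.26). The count does not show that the responses add up.

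The 24 h response was set beside those at 12 and 48 h, which come from other libraries with their own mocks. BL+Kyn against mock called 952 genes (5.02%) at 12 h, 484 higher (2.55%) and 468 lower (2.47%), and 4435 (23.4%) at 48 h, 2305 higher (12.2%) and 2130 lower (11.2%). Of the 3457 genes called at 24 h, 673 were also called in the same direction at 12 h, 19.5% of the 24 h calls and 70.7% of the 12 h calls. At 48 h 2291 were, 66.3% of the 24 h calls and 51.7% of the 48 h calls. Of the genes called at 24 h, 9 were called in the opposite direction at 12 h and 3 at 48 h. Root hair genes were low at every time, with medians of -2.20, -2.41 and -2.86 and 20, 21 and 23 falls at 12, 24 and 48 h.

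**Figure D5:**
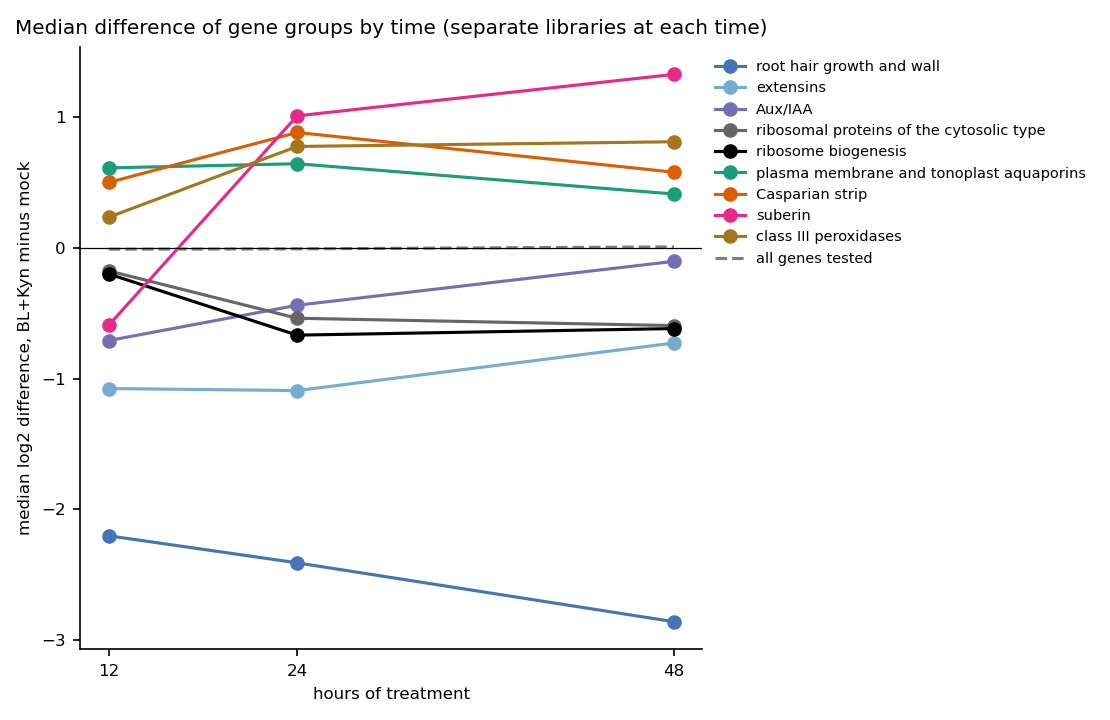
Median fitted log2 difference between BL+Kyn and mock (vertical) of 9 gene groups and of all genes tested (dashed) at 12, 24 and 48 h (horizontal); each time has its own 4 libraries. Root hair genes stay lowest at all 3 times, and suberin genes stand at -0.59 at 12 h and at 1.01 and 1.33 later.

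Casparian strip genes had medians of 0.50, 0.88 and 0.58, with 0, 10 and 6 rises. Suberin genes turned from a median of -0.59 with 3 falls at 12 h to 1.01 and 1.33 with 8 and 9 rises later; of single genes, GPAT5 had log2 differences of -1.58 at 12 h, 1.80 at 24 h and 1.83 at 48 h, without a call for the change. Ribosome biogenesis genes had 0 falls at 12 h, 14 at 24 h and 15 at 48 h, and ribosomal protein genes 0, 55 and 60. A test of the difference between responses called 1 gene (0.00528%) between 24 and 12 h, with 1691 at an unadjusted p under 0.05, and 10 genes (0.0528%) between 24 and 48 h, 7 with the higher response at 24 h (0.0369%) and 3 with the lower (0.0158%). The gene that differed from 12 h was EDA4, at 632 and 877 in mock and 444 and 538 in BL+Kyn at 12 h and at 741 and 801 in mock and 1671 and 2293 in BL+Kyn at 24 h. With 1 library left out, 0 to 2 genes differed between 24 and 12 h, and the count was 0 except without mock replicate 1 at 12 h (1) or BL+Kyn replicate 1 at 24 h (2).

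The hair factor RSL2 fell further at 48 h than at 24 h. It stood at 412 and 384 in mock and 21.6 and 55.5 in BL+Kyn at 48 h, a log2 difference of -3.48, against -0.89 at 24 h, and the difference between the responses was 2.59 (SE 0.43, adjusted p = 0.0254). PCK1, phosphoenolpyruvate carboxykinase, stood at 1510.2 and 1763 in mock and 763 and 665 in BL+Kyn at 24 h (log2 -1.19, SE 0.15, adjusted p = 3.32e-05) and at 1369.6 and 1392 in mock and 1684 and 1366 in BL+Kyn at 48 h. Its 24 h libraries did not overlap whereas the 48 h groups differed by 0.14 (adjusted p = 0.556). The number of genes that differed between 24 and 48 h lay between 0 without mock replicate 2 at 48 h or BL+Kyn replicate 2 at 24 h and 147 without BL+Kyn replicate 1 at 48 h.

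The authors' deposited table of BL+Kyn against mock at 24 h lists 2051 genes higher and 1678 lower at an adjusted p under 0.05. Of the 3457 limma calls, 3289 are in the authors' deposited table at that threshold with the same direction, 95.1% of the limma calls and 88.2% of the authors' calls. Both contrast the same 4 libraries, while the limma calls took their spread from all 24 libraries. No limma call has the opposite sign there.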

How the data were processed

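Libraries were made by CEL-Seq2, and the submitters' processing notes name DESeq2 1.18.1, HTSeq 0.6.1, TopHat2 2.1.0, FastQC 0.11.5, cutadapt 1.10, Trim Galore and the TAIR10 build, without roles or order. Whether molecular barcodes were collapsed and whether counting used strand is not given in the sources used here, so overlapping and antisense genes cannot be told apart. The main table deposited by the authors holds normalized counts, a signal in which each library's reads were divided by its size factor. All its values came out as whole reads within a tolerance of 0.1 read, which gave the depth of each library. The authors also deposited log2 fold changes and p-values per comparison. The deposited table has 40246 features, of which 26800 have reads.

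The 18948 features with a mean of at least 5 over the 24 libraries were tested with the moderated test of limma 3.58.1 (R 4.3.3) on log2(value + 1), with a mean for each of the 12 groups, and every adjusted p is limma's with Benjamini-Hochberg adjustment over all 18948 unless another tool is named. On this scale, fold changes of low genes are understated. Whole reads were also tested with edgeR 4.0.16 (quasi-likelihood) and DESeq2 1.42.0, because the deposited table holds normalized values and not the raw counts. The other alternatives were the pseudocounts 0.5 and 5, no filter, a minimum mean of 20, equal library totals, a replicate block, fits on fewer libraries and leaving out each library in turn. The script was tested on simulated data.

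Values per library are normalized counts of 3' tags, comparable between libraries but not between genes. Genes were described in 38 lists and in 6 families read from reference descriptions; the comparison, lists and tests were chosen with earlier results of these data known. Named genes were the 12 largest rises and falls, with a mean of at least 20 and groups that did not overlap, up to 5 called members of each list, up to 3 in each direction of a family, up to 4 in each direction of the other comparisons and a set of key genes. Promoter windows were read from RefSeq TAIR10.1, whose gene models gave a window for 18473 genes tested. Values of a few genes are not reported here.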

Additional observations from a re-analysis of the deposited data

Results flagged for a closer look

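The response to BL+Kyn differed between times for 11 genes, by the test of the difference itself. For EDA4 the response at 24 h exceeded that at 12 h by 1.95 on the log2 scale (limma, adjusted p = 0.0467), with log2 differences from mock of -0.61 at 12 h and 1.34 at 24 h.

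In 7 genes the response at 24 h was above that at 48 h. RSL2 differed by 2.59, GSTU28, a tau-class glutathione transferase, by 2.2 and AT1G50060 by 2.14. These were followed by AT3G50120 with 1.95, AT1G62510 with 1.88, AT2G41970 with 1.27 and AGP13, an arabinogalactan protein, with 0.987. GSTU28 stood at 85.4 and 74.2 in mock and 70.8 and 89.3 in BL+Kyn at 24 h and at 124 and 109.8 in mock and 17.3 and 34.7 in BL+Kyn at 48 h, so that its groups were apart at 48 h and overlapped at 24 h. AT1G62510 stood at 241 and 192 in mock and 2676 and 2822 in BL+Kyn at 24 h, a rise of 3.67, and its log2 difference at 48 h was 1.79.

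In 3 genes the response at 24 h was below that at 48 h. NRAMP1, a metal transporter, differed by -1.35, PCK1 by -1.33 and At3NC007630 by -3.79. NRAMP1 stood at 459 and 511 in mock and 527 and 523 in BL+Kyn at 24 h and at 462 and 396 in mock and 1356 and 1040.1 in BL+Kyn at 48 h. At3NC007630, a low feature, stood at 13.98 and 28.4 in mock and 11.8 and 7.09 in BL+Kyn at 24 h and at 10.03 and 9.05 in mock and 71.3 and 67.96 in BL+Kyn at 48 h.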

How the results depend on the processing

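The 3457 calls of BL+Kyn against mock became 3013 without a filter, 3561 with edgeR, 3659 with DESeq2, 4476 in a fit of the 4 libraries alone and 1059 to 2540 with 1 library left out. For BL against mock the 20 calls became 100 with DESeq2 and 0 to 7 with 1 library left out. For Kyn against mock the 165 calls became 107 without a filter, 271 with DESeq2 and 19 to 112 with 1 library left out. For BL+Kyn against Kyn the 1017 calls became 591 without a filter, 1526 with DESeq2 and 60 to 579 with 1 library left out. The departure from the sum, with 0 calls, had 39 with DESeq2, 4 without the 2 libraries with the most green-tissue transcripts (BL and Kyn at 12 h, replicate 2) and 0 to 12 with 1 library left out. The difference from 12 h, with 1 call, had 0 without a filter, 5 with equal totals, 0 with edgeR, 41 with DESeq2, 0 without the green-tissue libraries and 0 to 2 with 1 library left out. The difference from 48 h, with 10 calls, had 3 without a filter, 70 with DESeq2 and 0 to 147 with 1 library left out. Fits with 1 library left out have fewer samples and assume that the lone library varies like the other groups; the cause of the other shifts was not tested.

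The replicate numbers were not taken as pairs: the deviations of same-numbered libraries correlated at -0.188 to 0.592 (median 0.041), 20 of 66 were above 0.1, and 18 of 24 libraries correlated best with their own number. With the replicate block there were 3673 calls for BL+Kyn against mock, 37 for BL and 23 for the difference from 12 h, and no other count moved by more than 1.5 times.

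Leaving out 1 library cannot turn the sign of a gene whose groups did not overlap. Of named genes, none that was called changed sign. Uncalled genes did: with 1 library left out, log2 differences from mock ran from -1.17 to 0.508 for GH3.3, -0.0478 to 1.34 for YUC9, -0.206 to 0.0209 for SCR, -0.117 to 0.246 for GL2, -0.136 to 0.169 for ARR5, -0.167 to 0.164 for GSTU28 and -0.462 to 0.499 for AT1G50060. ARR5 turned to -0.00291 with DESeq2, -0.0105 with edgeR and -0.00604 with equal totals, and AT1G50060 to -0.0233, -0.0374 and -0.00384. The shallowest library of the comparison, BL+Kyn replicate 2, limits what low genes can show.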
